A study of Mus musculus with 2 samples.

Results

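The mir-148/152 family of the mouse consists of the microRNA genes Mir148a, Mir148b and Mir152. Its 3 members were taken by gene symbol from the 1973 gene rows of each count table, and all 3 were found and counted in both libraries. MicroRNA-sized RNA had been sequenced from whole hearts of B6NCrl mouse embryos at day 12.5 of development, with male and female embryos pooled and with no treatment or genetic change named in the labels. The 2 biological replicates, 1 library each, formed a single group, so no condition could be compared with another. The labels give the replicates separate biosample records under 1 shared donor record.

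A microRNA is cut from a hairpin transcript, and one arm of the hairpin, about the length of a short sequencing read, guides Argonaute proteins to messenger RNAs. Bases 2 to 8 of that arm, the seed, pair with the target, so microRNAs with one seed can share targets. The family is known from human cells to repress the DNA methyltransferases DNMT1 and DNMT3B, and miR-148a is abundant in liver, where it acts on cholesterol uptake through the LDL receptor.

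The mature sequences of the guide arms (3p arms) show what defines the family. They are the RefSeq sequences of build GRCm38.p6, printed 5′ to 3′ with the seed in capitals.
miR-148a-3p: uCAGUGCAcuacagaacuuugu
miR-148b-3p: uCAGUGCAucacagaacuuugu
miR-152-3p: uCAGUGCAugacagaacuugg
All 3 have the same seed, CAGUGCA. Counting positions from 1 at the 5′ end of the first-named arm, miR-148b-3p differed from miR-148a-3p by C9U and U10C, and miR-152-3p differed from it by C9U, U10G and U20G over 21 shared positions. Between miR-148b-3p and miR-152-3p the differences were C10G and U20G. Every difference therefore lies outside the seed.

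The opposite (5p) arms are less alike and are shown for that contrast, again with bases 2 to 8 in capitals.
miR-148a-5p: aAAGUUCUgagacacuccgacu
miR-148b-5p: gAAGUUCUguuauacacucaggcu
miR-152-5p: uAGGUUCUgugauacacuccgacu
Here miR-148a-5p and miR-148b-5p share their bases 2 to 8, while miR-152-5p differs from miR-148b-5p within that stretch by A3G. Aligned from their first base without gaps, miR-148a-5p and miR-148b-5p differed at 9 of 22 positions, against 2 of 22 for their 3p arms. These 5p arms are 22 and 24 bases long, and a gap in the alignment could lower the count of 9. The 5p arms of miR-148b and miR-152, both 24 bases long, differed at 5 of 24 positions, against 2 of 21 for their 3p arms. The deposited values are counts per hairpin gene, so both arms of a gene are in 1 number and the share of each arm is not given by these tables.

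The hairpins, which are the units that were counted, are printed with the 3p arm in capitals.
Mir148a hairpin: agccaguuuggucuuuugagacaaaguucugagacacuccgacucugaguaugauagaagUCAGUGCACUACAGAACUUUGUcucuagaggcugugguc
Mir148b hairpin: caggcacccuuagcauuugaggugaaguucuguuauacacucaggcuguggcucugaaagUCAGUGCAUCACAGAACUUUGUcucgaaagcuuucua
Mir152 hairpin: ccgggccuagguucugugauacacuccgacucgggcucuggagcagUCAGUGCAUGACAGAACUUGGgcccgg
They are 99, 97 and 73 bases long. Against 2201 other microRNA transcripts of GENCODE M21, the longest run shared with another hairpin was 15 bases for Mir148a and for Mir148b, each with the other, and 12 bases for Mir152, with Mir148a. In alignments without gaps, no other microRNA transcript matched a member's 3p arm with fewer than 2 mismatches, and the single closest one was always another member. The sources used here do not state how many mismatches the mapping allowed, and whether reads were assigned across members was not tested. Reads that fit several places in the genome, 27.1% and 25.3% of all reads in replicates 1 and 2, are in no gene's count, and whether any of them came from this family was not tested.

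On GRCm38 (mm10), Mir148a (ENSMUSG00000065505.1) spans bases 51269812 to 51269910 of chromosome 6 (minus strand) and overlaps no other gene annotated in GENCODE M21. Mir148b (ENSMUSG00000065560.1) spans bases 103285125 to 103285221 of chromosome 15 (plus strand), in an intron of Copz1 and on its strand. Mir152 (ENSMUSG00000065515.1) spans bases 96850393 to 96850465 of chromosome 11 (plus strand), in an intron of Copz2 and on its strand. Copz1 and Copz2 encode the zeta subunits of the coatomer, the coat of vesicles that bud from the Golgi. The microRNA lay in intron 1 in all 4 Copz1 transcripts and all 3 Copz2 transcripts that span it.

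The 3 loci share some kinds of neighbours, which were looked up after the positions were seen. A gene of the Nfe2 family of leucine zipper factors lies near each, with Nfe2l3 at 162.8 kb from Mir148a, Nfe2 at 26.7 kb from Mir148b and Nfe2l1 at 20.4 kb from Mir152. A heterochromatin protein gene is close to each as well, with Cbx3 at 200.4 kb, Cbx5 at 45.3 kb and Cbx1 at 41.8 kb. A gene of an A-type nuclear ribonucleoprotein lies near 2 of the 3, with Hnrnpa2b1 at 191.0 kb from Mir148a and Hnrnpa1 at 38.4 kb from Mir148b, but the nearest gene of that name to Mir152, Hnrnpab, is 45243.5 kb away.

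Mir148a was the main source of family reads in the embryonic heart, and Mir148b and Mir152 were each several times lower. Sense counts, those of reads on the strand of a microRNA gene, summed to 4478599 in replicate 1 and 5279908 in replicate 2, and levels are counts scaled to these sums (CPM, per 1e+06 sense counts). Mir148a had 4118 counts (919 CPM, 95% Poisson interval 892 to 948) in replicate 1 and 4832 counts (915 CPM, 890 to 941) in replicate 2. Each of these values lies inside the interval of the other.

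Mir148b had 801 counts (179 CPM, 95% Poisson interval 167 to 192) in replicate 1 and 1037 counts (196 CPM, 185 to 209) in replicate 2. Mir152 had 686 counts (153 CPM, 142 to 165) in replicate 1 and 758 counts (144 CPM, 134 to 154) in replicate 2. Mir148b was therefore the higher of the pair in both libraries, by a margin far smaller than that separating either from Mir148a. As means, Mir148a stood at 917 ± 3.05 CPM, Mir148b at 188 ± 12.4 CPM and Mir152 at 148 ± 6.80 CPM (SD, n = 2 each). The intervals hold counting error of reads alone. The labels name no molecular identifiers that would tell molecules from amplified copies, so the intervals may be too narrow for molecules.

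**Figure D1:**
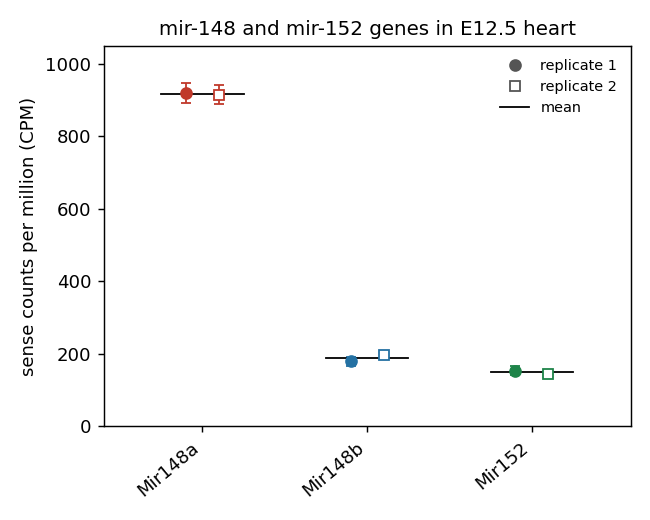
Level of each family member in the embryonic heart, in sense CPM (y axis from 0), with filled circles for replicate 1, open squares for replicate 2, bars for 95% Poisson intervals and a line for the mean. Both Mir148a points lie near 917 CPM, while the Mir148b and Mir152 points lie between 144 and 196 CPM.

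Together the members took 0.125% of the sense counts, with 1252 CPM in replicate 1 and 1255 CPM in replicate 2 (1253 ± 2.57 CPM, SD, n = 2). Of the family's counts, Mir148a supplied 73.2% ± 0.393, Mir148b 15.0% ± 0.960 and Mir152 11.8% ± 0.566 (SD, n = 2 each). In RNA of whole hearts, fewer cells of a type and less RNA per cell cannot be told apart.

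Within a library, Mir148a exceeded Mir148b by a ratio of 5.14 (95% exact counting interval 4.77 to 5.55) in replicate 1 and 4.66 (4.36 to 4.99) in replicate 2. Mir148a exceeded Mir152 by 6.003 (5.54 to 6.52) in replicate 1 and 6.37 (5.90 to 6.89) in replicate 2. These ratios, 4.90 ± 0.340 and 6.19 ± 0.263 (SD, n = 2 each), were many times their spread between libraries. With 2 libraries an exact two-sided permutation test cannot go below p = 0.5, so no p is given for them.

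The order of Mir148b and Mir152 was less firm. Mir148b exceeded Mir152 by a ratio of 1.17 (95% exact counting interval 1.05 to 1.29) in replicate 1 and 1.37 (1.24 to 1.504) in replicate 2, with a mean of 1.27 ± 0.142 (SD, n = 2). Reads of this size span a mature arm, so counts were not divided by length. Divided by hairpin length, the ratio was 0.879 in replicate 1 and 1.03 in replicate 2, or 0.954 ± 0.107 (SD, n = 2), and on that scale the members did not differ beyond their spread between libraries. Divided by the length of the 3p arm, it was 1.21. Ligation and amplification can favour some small RNA sequences over others, which these tables do not measure, so a ratio between genes is one of reads.

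Among the 712 microRNA genes with a sense count in either library, Mir148a ranked at position 86 by mean level, Mir148b at 150 and Mir152 at 161. The ranks hardly moved between libraries, at 84 in both for Mir148a, 150 and 147 for Mir148b, and 159 and 161 for Mir152 in replicates 1 and 2. As a check of the tissue, Mir208a, Mir208b and Mir499, which lie in myosin heavy chain genes and mark heart muscle, summed to 63958 and 61924 CPM in replicates 1 and 2. Mir148a reached 0.0928 ± 0.00119 (SD, n = 2) of the level of Mir208a in the same library.

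The genes ranked next to Mir148a were Mir450b (926 ± 7.22 CPM) and Mir467c (922 ± 45.5 CPM) above it and Mir434 (907 ± 11.5 CPM) and Mir1193 (865 ± 69.9 CPM) below it (SD, n = 2 each). Mir450b lay above Mir148a and Mir434 below it in both libraries, at levels inside its counting intervals. In replicate 2 Mir467c, at 890 CPM, stood below Mir148a, so the order of these 2 was not fixed. Mir1193 lay 2 places below at 914 and 816 CPM in replicates 1 and 2, under Mir148a in both. Next to Mir148b stood Mir30b (188 ± 36.7 CPM), Mir669l (188 ± 8.32 CPM), Mir485 (185 ± 0.650 CPM) and Mir874 (180 ± 11.6 CPM), and all 4 means lay within the SD of Mir148b. Next to Mir152 stood Mir3102 (154 ± 12.3 CPM), Mir1306 (149 ± 8.93 CPM), Mir144 (148 ± 11.4 CPM) and Mir200b (141 ± 11.4 CPM), and none of these means differed from that of Mir152 by more than the SD of the neighbour. Mir467c and Mir669l share 22-base windows with 16 and 15 other microRNA hairpins, so their levels are uncertain. With 2 libraries of 1 tissue, likeness here means level alone.

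**Figure D2:**
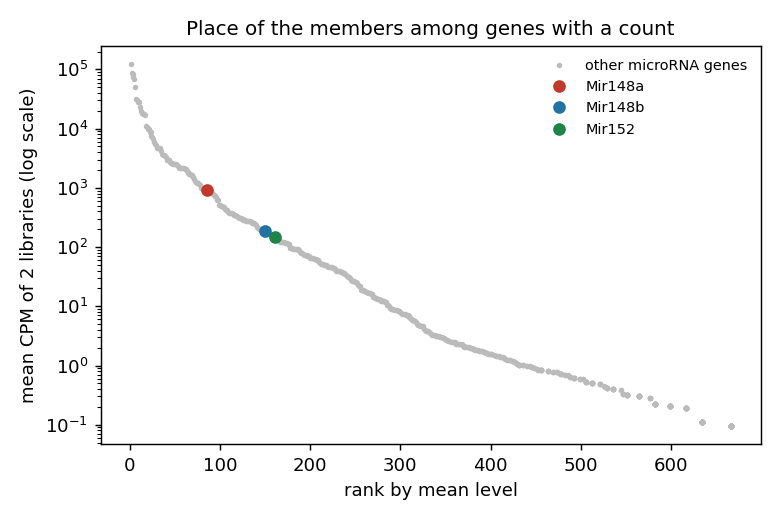
Mean CPM of the 2 libraries (log scale, y axis) against rank (x axis) for the 712 genes with a count, with grey points for other microRNA genes and coloured points for the members. Mir148a sits at rank 86, and Mir148b and Mir152 lie close together at ranks 150 and 161.

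The seed string of the family also occurs, 1 base nearer the 5′ end, in 3p arms of the mir-130 and mir-301 family, which is known from endothelial and smooth muscle cells of vessels. In RefSeq, 10 of 1738 mature sequences (0.575%) hold CAGUGCA within their first 9 bases. In the 3 arms of the mir-148/152 family it forms bases 2 to 8, and in the 7 other sequences it forms bases 1 to 7. The counted genes among those 7 are shown with CAGUGCA in capitals, so that the shift by 1 base can be seen.
miR-130a-3p: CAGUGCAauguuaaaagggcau
miR-130b-3p: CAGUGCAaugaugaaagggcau
miR-301a-3p: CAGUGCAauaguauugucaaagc
Their own seed, at bases 2 to 8, is AGUGCAA, so by seed they form a family apart from mir-148/152. The string was searched on the microRNA strand alone, and a match is a description of letters, not of targets.

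The mir-148/152 family was the less abundant of these families, although its leading member overlapped the range of the other. Mir148a, at 919 and 915 CPM, lay below Mir130a (18210 and 18631 CPM in replicates 1 and 2), Mir130b (4196 and 4221 CPM) and Mir301, which gives miR-301a (1090 and 1421 CPM), and above Mir301b (68.8 and 80.7 CPM). Mir148b and Mir152 lay below Mir301 and above Mir301b in both libraries. Summed, the mir-148/152 family held 1252 and 1255 CPM in replicates 1 and 2, against 23565 and 24354 CPM in the 4 genes of the mir-130 and mir-301 list. Mir301b is in the list by family name, as the search returned no sequence of it. That does not show that its 3p arm lacks the string. The list exceeded the family by a ratio of 18.8 in replicate 1 and 19.4 in replicate 2 (19.1 ± 0.406, SD, n = 2), and this ratio rested mostly on Mir130a, since without it the mean ratio was 4.42. The nearest pair was Mir301 over Mir148a, with a ratio of 1.19 (95% exact counting interval 1.14 to 1.24) in replicate 1 and 1.55 (1.498 to 1.61) in replicate 2. Of the remaining genes with the string, Mir6341, Mir6389 and Mir130c had 0 counts in both libraries, which at a limit of 3 counts still allows a level of 0.670 and 0.568 CPM in replicates 1 and 2. The last, Mir721, was not analysed here, because no gene row carried that symbol.

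**Figure D3:**
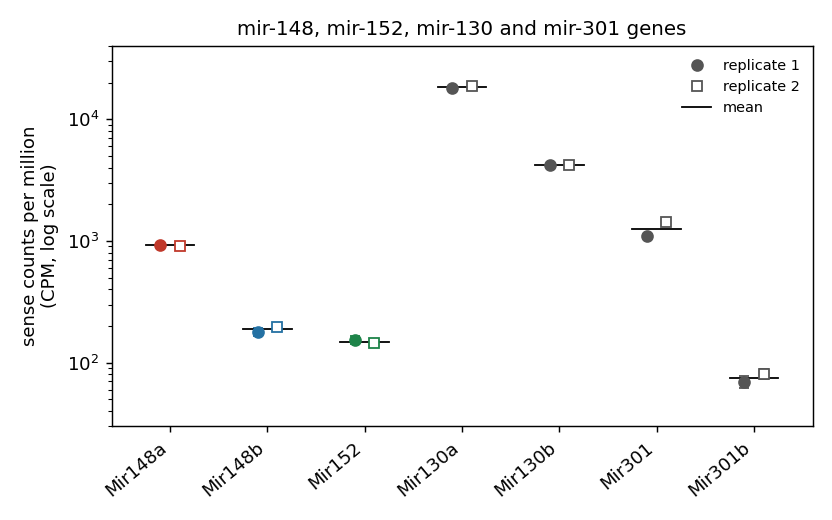
Level in sense CPM (log scale, y axis) of the mir-148/152 members (coloured) and the mir-130 and mir-301 genes (grey), with filled circles for replicate 1, open squares for replicate 2, bars for 95% Poisson intervals and lines for means. Mir148a lies between Mir301 and Mir301b, and Mir130a is highest at 18421 CPM.

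The mir-29 family is another set of microRNAs known, in human cells, to repress DNA methyltransferases, mainly DNMT3A and DNMT3B. The mir-148/152 family, at 1252 and 1255 CPM in replicates 1 and 2, exceeded its 4 genes, which summed to 378 and 399.8 CPM, by 3.31 and 3.14 (3.23 ± 0.123, SD, n = 2). Mir29a led at 283 and 295 CPM, followed by Mir29c at 92.9 and 102 CPM in replicates 1 and 2. Mir29b-1 and Mir29b-2 held 3 to 10 counts, but they share a 22-base window with each other, and Mir29c shares one with Mir29b-1. Reads that fit several places are not counted, so the mir-29 sum may be too low and the ratio too high.

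A microRNA of a Hox cluster lies on the chromosome of each member. Mir10a, in the Hoxb cluster on the chromosome of Mir152, stood at 1529 ± 19.4 CPM. Mir196b, in the Hoxa cluster on the chromosome of Mir148a, stood at 289 ± 73.2 CPM, and Mir615, in the Hoxc cluster on the chromosome of Mir148b, at 59.6 ± 20.3 CPM (SD, n = 2 each). A single gene per cluster is set out here, so no order is read from these 3. The list also holds Mir10b, Mir196a-1 and Mir196a-2, at 379, 0 and 6.47 mean CPM. Mir10b (465 and 292 CPM in replicates 1 and 2), Mir196b (340 and 237 CPM) and Mir615 (73.9 and 45.3 CPM) were lower in replicate 2. Mir10a (1515 and 1542 CPM) and Mir196a-2 (5.36 and 7.58 CPM) were higher there. Mir196a-1 and Mir196a-2 share a 22-base window, so their levels are uncertain.

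Between the 2 libraries Mir148a varied little, while Mir148b and Mir152 varied about as much as other genes of their level, as set out below. The log2 ratio of replicate 2 over replicate 1, computed on CPM + 1, was −0.01 for Mir148a (ratio 0.995, 95% exact counting interval 0.955 to 1.04). It was 0.13 for Mir148b (ratio 1.10, 1.00 to 1.21) and −0.09 for Mir152 (ratio 0.937, 0.844 to 1.04). The sign for Mir148a turned under 3 other ways of scaling or counting, so no direction is given for it.

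The libraries were compared gene by gene with an exact binomial test on their counts. With Benjamini-Hochberg adjustment over 712 genes, 0 of the 3 members passed an adjusted p of 0.05, with or without a minimum ratio. The adjusted p was 1 for Mir148a, 0.205 for Mir148b and 0.594 for Mir152 in this exact test. Over all genes 0.421% passed with a 2-fold minimum and 16.7% at any ratio. At an unadjusted p of 0.05 the exact binomial test passed 1 of 3 members, Mir148b (p = 0.0467), against 23.0% of all genes, and the edgeR exact test passed 0 of 3, against 2.95%. With adjustment and the 2-fold minimum, the edgeR exact test passed 0 of 3 members and 0.281% of all genes. These tests set 1 library against 1 and hold counting error or a dispersion from the same libraries, so they describe the libraries and not a condition.

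The shares over all genes include many genes with few counts, which the exact binomial test can hardly call. Among genes of like level to the members, a larger share passed that test at an adjusted p of 0.05 and any ratio. With a mean from 100 to 1000 CPM, 38 of 99 genes (38.4%) passed. The share was 18 of 54 genes (33.3%) from 100 to 300 CPM and 23 of 38 (60.5%) from 500 to 2000 CPM. With so few members, the lack of a pass among them does not set them apart from these genes. The spread of genes of like level is given as well. Of 99 genes with a mean from 100 to 1000 CPM, the median absolute log2 ratio was 0.12. In that set 94 genes had a larger absolute ratio than Mir148a, 61 a larger one than Mir152 and 44 a larger one than Mir148b.

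**Figure D4:**
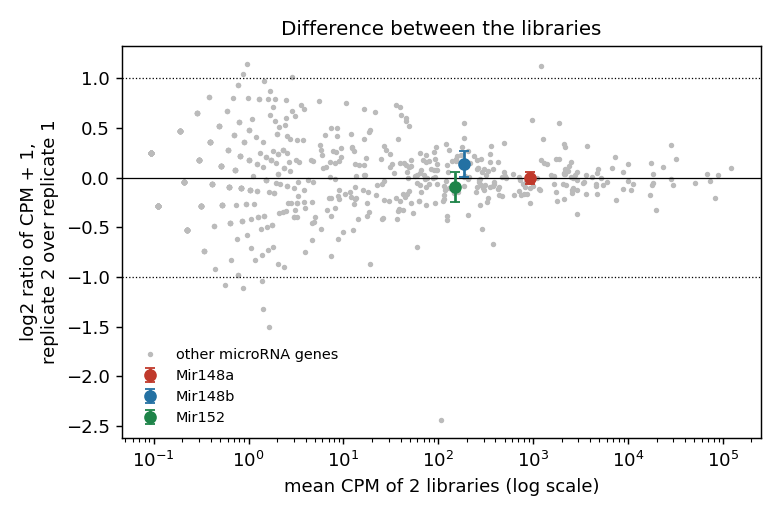
Log2 ratio of replicate 2 over replicate 1 on CPM + 1 (y axis) against mean CPM (log scale, x axis) for 712 microRNA genes, with members coloured and bars for their 95% exact counting intervals. Dotted lines mark a 2-fold ratio, and the 3 members lie between −0.09 and 0.13.

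Some markers of other cells differed far more between the libraries. The ratio of replicate 2 over replicate 1 was 0.995 for Mir148a and 0.179 for Mir122, which marks hepatocytes, a cell type also rich in miR-148a. Mir122 stood at 181 CPM in replicate 1 but at 32.4 CPM in replicate 2. Of the erythroid genes, Mir451a stood at 770 and 1671 CPM in replicates 1 and 2 and Mir144 at 156 and 140 CPM, so the list's sums of 926 and 1811 CPM differed through Mir451a. White blood cell markers Mir223, Mir155 and Mir150 summed to 318 and 331 CPM in replicates 1 and 2, and the smooth muscle pair Mir143 and Mir145a to 88791 and 90499 CPM. The 5 epithelial markers of the mir-200 family summed to 735 and 727 CPM, with Mir429 lower in replicate 2 (460 and 406 CPM) and the other 4 higher, such as Mir141 (12.3 and 20.5 CPM). Mir126a, which marks endothelium, had 67024 and 68770 CPM. The part of each cell type in the family's reads was not tested.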

How the data were processed

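The authors deposited raw counts of reads per microRNA gene, 1 table per library, on assembly mm10 with annotation M4, per the descriptions filed with the tables. Neither the aligner nor the counting tool is given in the sources used here. The 3 count columns have no names. They were read from their sums as counts of both strands together, of the gene's own strand (sense, used here) and of the opposite one. The 4 rows that name no gene were left out of totals. They include reads that fit several places, unmapped reads (18.1% and 19.1%) and reads outside genes on the gene's strand (6.29% and 5.88%).

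Symbols and positions came from GENCODE M21, which held 1894 of 1973 identifiers, and sequences from RefSeq (GRCm38.p6), with all 3 members matched. CPM used the sum of sense counts, and log2 ratios a pseudocount of 1 CPM. The exact binomial test was checked on simulated Poisson counts with changes set in advance. These counts held no other variation between libraries, so the check does not cover such variation. TMM and the edgeR 4.0.16 exact test, and DESeq2 1.42.0 size factors, were alternatives (R 4.3.3). Other steps used Python 3.11.15 with scipy 1.17.1.

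Named were the members, 2 genes ranked above and 2 below each, genes with the seed string, and the mir-130 and mir-301, mir-29, Hox and marker lists. Mir10b, Mir196a-1 and Mir196a-2 of the Hox list had 379, 0 and 6.47 mean CPM. Members and lists were chosen with earlier results of these data known. Mir142, of the white blood cell list, was not analysed here, because no gene row carried that symbol. The distance from the members to 1 further group of neighbouring genes, other than those named, is not reported here.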

Additional observations from a re-analysis of the deposited data

How the results depend on the processing

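Alternatives left the members' order as it was, with 1 exception: per hairpin length, Mir148b over Mir152 was 0.954. Mir148a over Mir152 was 4.56 per hairpin length and 5.91 per length of the 3p arm. The mir-130 and mir-301 list exceeded the family by 26.8 per hairpin length and by 4.42 without Mir130a. These length and list alternatives were chosen after the data were seen.

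With all reads as the denominator, Mir148a stood at 451, Mir148b at 92.3, Mir152 at 72.9 and the family at 616, each in 1e+06 reads. Without regard to strand, Mir148a stood at 877 CPM and the family at 1199 CPM, and with DESeq2 size factors at 914 and 1249 CPM. The log2 ratio of Mir148a between libraries turned to 0.014 with TMM, 0.0019 with DESeq2 size factors and 0.00033 without regard to strand. Adjusted p-values of the exact binomial test ranged from 0.118 to 0.205 for Mir148b, from 0.594 to 0.754 for Mir152 and from 0.945 to 1 for Mir148a. Without a minimum ratio, 119 genes differed between the libraries in place of 3.

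Leaving out each replicate gave 915 to 919 CPM for Mir148a, 179 to 196 CPM for Mir148b and 144 to 153 CPM for Mir152. In all, 55 of the alternative values kept their direction and side of the threshold or moved by less than their spread, 13 moved further and 4 turned direction. Leaving out 1 of 2 libraries always moves a mean by less than its SD. Those values, and the ones with another pseudocount, were among the 55 by construction. Mir148a over Mir148b could not change per length of the 3p arm either, since both arms have 22 bases. That ratio also stayed the same without regard to strand, since neither gene had an antisense count. No pairing of libraries across conditions was possible because there was 1 group, while ratios of members were taken within each library. At this depth a count of 0, read with a limit of 3 counts, allows up to 0.670 and 0.568 CPM in replicates 1 and 2. With 2 libraries, an SD rests on 1 difference.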
